A study of Mus musculus with 24 samples.

Results

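Serpina1a, Serpina1b, Serpina1c, Serpina1d, Serpina1e and Serpina3n are genes of the mouse serpin family that encode secreted inhibitors of serine proteases. They are 6 of the 52178 genes in the count table and were taken from it by their symbols. They were chosen by their measured levels in an earlier look at these libraries, namely by the difference between the control tissues and by the difference between control and 50 MPa hip caps. Those comparisons, and the others that use the 50 MPa hip caps, are given below as descriptions without a test. Hip caps (the cartilage caps of the femoral heads) came from male C57/BL6 mice (C57/BL6J in the study's methods) aged 4 weeks, with the 2 caps of a mouse pooled per sample, and metatarsals came from E15 embryos of the same strain, of unstated sex, with 6 bones pooled per sample. Each tissue was cultured in its own medium for 24 hours, placed in a pressure vessel for 1 hour at 0 MPa (control), 5 MPa or 50 MPa, and cultured for 24 hours more. The labels write the unit as mPa and the study's methods as MPa, and the latter was used. Each of the 6 groups has 4 libraries of total RNA depleted of ribosomal RNA. Age, medium, sex and the share of bone and cartilage differ between the tissues together, so their parts in a difference between hip caps and metatarsals cannot be told apart.

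Serpins work as suicide substrates. The protease cleaves an exposed loop of the inhibitor, the inhibitor changes shape, and the protease stays covalently bound and distorted until the complex is taken up by cells. Alpha 1-antitrypsin, the product of the single human SERPINA1 gene and of several copies in the mouse, is secreted in large amounts by hepatocytes as an acute phase protein, is also made by other cells including chondrocytes, and is known above all as the inhibitor of neutrophil elastase. Serpina3n is a mouse relative of human alpha 1-antichymotrypsin that inhibits granzyme B, cathepsin G and neutrophil elastase and is induced by inflammatory cytokines.

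In the mouse annotation (GENCODE release 21, build GRCm38) all 6 genes lie on chromosome 12. The 5 Serpina1 genes are on the minus strand between positions 103728156 and 103958975, a stretch of 230820 bases, and Serpina3n lies 447753 bases further on, on the plus strand at 104406729 to 104414329. The coding sequences of the Serpina1 genes are nearly alike, with 96.3% (Serpina1e against Serpina1b or Serpina1d) to 98.5% (Serpina1a against Serpina1c) of aligned bases identical, and 86 of 1242 positions vary among the 5. Serpina3n shares 58.5% to 59.3% of its aligned coding bases with them. The 45 coding bases in which the Serpina1 genes differ most are shown because such bases are what allows a read to be given to 1 of the 5 genes, with capitals at the 13 positions that vary. They are bases 941 to 985 of the coding sequence of Serpina1a and bases 872 to 916 of the other four.
Serpina1a: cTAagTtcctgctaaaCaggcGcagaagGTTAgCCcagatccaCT
Serpina1b: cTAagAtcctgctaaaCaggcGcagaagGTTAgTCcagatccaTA
Serpina1c: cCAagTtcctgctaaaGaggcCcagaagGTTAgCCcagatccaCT
Serpina1d: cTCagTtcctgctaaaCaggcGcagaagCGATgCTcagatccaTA
Serpina1e: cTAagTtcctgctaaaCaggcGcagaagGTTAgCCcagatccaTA

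Of the words of 31 bases in its annotated transcripts, 34.8% occurred in no other gene for Serpina1a, 55.3% for Serpina1b and 14.2% for Serpina1c. The share was 35.3% for Serpina1d and 45.8% for Serpina1e. The remaining words also occurred in other Serpina1 genes or in genes outside this family. For Serpina3n the share was 78.4%. Of the 4958 words of the Serpina1 family, 78.6% occurred in no gene outside it. The outside genes found to share words were the neighbouring pseudogene Gm8893, an antisense gene at Serpina1c (B430119L08Rik) and Serpina3 genes. They were not listed gene by gene, so whether Serpina3 genes share words with the Serpina1 genes or only with Serpina3n cannot be told. The counts of a single Serpina1 gene therefore rest on an estimated division of shared reads and are uncertain, and the sum of the 5 genes (the Serpina1 sum) is the firmer value. Gm8893 held 177 counts over the 12 hip cap libraries and B430119L08Rik 103, against 23407 for the Serpina1 sum. Strand was not marked in 6 of the 24 libraries, so Serpina1c and the antisense gene cannot be told apart there.

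The promoters are given to show how alike the 5 Serpina1 copies are outside their coding sequence. RefSeq promoters (GRCm38.p6, 250 bases before and 50 after the annotated start) matched all 6 genes. Those of the Serpina1 genes were 91.7% to 98.4% identical to each other and 44.2% to 47.4% identical to that of Serpina3n. The stretch of 60 bases below is shown because it was nearly the same in the 5 copies, with capitals at the 1 position where they differ. It lies on the minus strand of chromosome 12, and its first base lies at -56 (Serpina1d) to -118 (Serpina1e) from the annotated start.
Serpina1a, chr12:103863621-103863680: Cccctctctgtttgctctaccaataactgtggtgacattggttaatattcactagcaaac
Serpina1b, chr12:103738196-103738255: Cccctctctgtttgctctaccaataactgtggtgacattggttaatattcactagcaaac
Serpina1c, chr12:103904958-103905017: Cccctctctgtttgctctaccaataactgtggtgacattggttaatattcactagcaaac
Serpina1d, chr12:103773630-103773689: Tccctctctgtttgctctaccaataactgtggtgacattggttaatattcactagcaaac
Serpina1e, chr12:103956956-103957015: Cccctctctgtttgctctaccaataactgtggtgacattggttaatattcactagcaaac
Serpina3n, chr12:104406648-104406707, plus strand, the 60 bases before the start: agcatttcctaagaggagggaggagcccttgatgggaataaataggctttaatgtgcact

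Motifs were searched on both strands. TGANTCA, the letters of an AP-1 site, was present in 4 of the 5 (all but Serpina1e) and in 7.81% of 32851 promoters of the same length. In those 4 it lay near the upstream end of the searched bases. The stretch of 60 bases shown above starts further upstream in Serpina1e (-118, against -56 to -67 in the others). The matching place in Serpina1e would thus lie outside the searched bases, and whether Serpina1e lacks the site was not tested. TTGCNNAA, a C/EBP pattern, was present in 4 of the 5 (all but Serpina1c) and in 10.8% of promoters. The matches in Serpina1b, Serpina1d and Serpina1e lay upstream of the start, at nearly the same distance from the shared stretch. The match in Serpina1a lay downstream of the start and is a different site. Because the copies are nearly alike, their matches are not independent, and these counts were not tested against the shares of all promoters. TTCNNNGAA (STAT) and TATAAA were in none of the 6, and in 8.30% and 13.6% of promoters. The motifs were chosen after the sequences were seen, and a match of letters shows no binding.

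Total counts per library ranged from 4185241 to 25104240, and levels are given as counts per 1000000 (CPM) after TMM scaling over all 24 libraries. The study left hip cap control 4 and hip cap 50 MPa library 2 out of its comparisons because they stood apart when libraries were clustered, so the fit here used the other 22 libraries. In those 2 libraries the summed level of 12 chondrocyte markers was 10022 and 15225 CPM, against 23558 to 82226 CPM in the 10 hip cap libraries used, and the sum of 12 hepatocyte markers was 6.49 and 39.7 CPM, against 1.74 CPM or less in every library used. The 12 chondrocyte markers were detected in all groups, with sums of 2058 to 5367 CPM in metatarsals, whose 10 skeletal muscle markers summed to 443 to 2523 CPM against 50.2 CPM or less in the hip caps used.

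Serpina1 transcripts were abundant in hip caps and nearly absent from metatarsals. In the control hip caps used, the Serpina1 sum was 318, 204 and 375 CPM, and in control 4 it was 28.6 CPM. At 5 MPa it was 239, 217, 94.1 and 200 CPM in libraries 1 to 4. At 50 MPa it was 113, 93.2 and 68.8 CPM in the libraries used, and 40.7 CPM in library 2. The hip caps used thus ran from 68.8 to 375 CPM, with control and 5 MPa values interleaved (control 2 lay below 5 MPa libraries 1 and 2) and the 50 MPa libraries lowest apart from library 3 at 5 MPa, whose 94.1 CPM lay between the 50 MPa values.

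In metatarsals the Serpina1 sum was 0, 4, 18 and 1 counts in the controls, 8, 4, 0 and 1 counts at 5 MPa and 1, 0, 0 and 14 counts at 50 MPa. The highest of these, in 50 MPa library 4, was 1.04 CPM, and 4 of the 12 libraries had no count. A count of 0 allows a level of up to 3 counts, which was 0.124 to 0.557 CPM over the metatarsal libraries. Every hip cap library, the excluded ones included, lay above every metatarsal library.

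**Figure D1:**
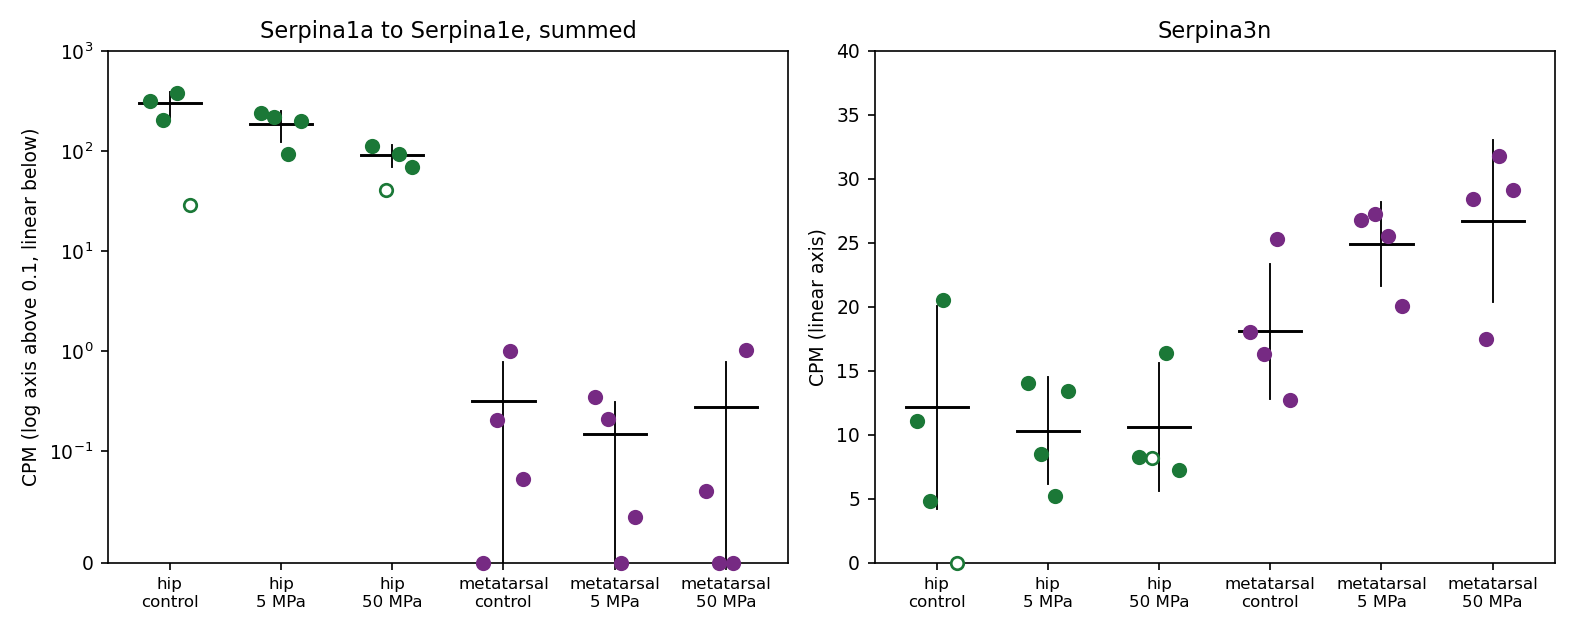
Levels (CPM) of the Serpina1 sum (left, log axis above 0.1 and linear below) and of Serpina3n (right, linear axis) in each library of the 6 groups. Points are libraries, open points are the 2 that the study left out, and lines show the mean and SD of the libraries used, with bars cut at 0. The Serpina1 sum is at 28.6 CPM or more in all hip caps and at 1.04 CPM or less in all metatarsals, while Serpina3n runs from 0 to 20.5 CPM in hip caps and from 12.7 to 31.8 CPM in metatarsals.

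Between the tissues, only the 8 libraries at 5 MPa took no part in the choice of the genes, and they are also all of 1 sequencing run and all stranded, so this comparison carries the test. In bulk tissue, fewer cells of a type and less RNA per cell cannot be told apart. The Serpina1 sum in hip caps at 5 MPa averaged 187 ± 64.3 CPM (SD, n = 4), and that in metatarsals 0.150 ± 0.160 CPM (n = 4). The log2 fold change was 10.17 (SE 0.76, adjusted p = 3.3e-08, edgeR quasi-likelihood test), and the groups did not overlap, as was so for 19.2% of all genes tested in that direction and 21.5% in the other. The exact permutation test over these libraries gave a two-sided p of 0.0286, the smallest that 70 divisions allow. All 6 genes had enough counts to be tested, and all 6 passed the test, the 5 Serpina1 genes higher in hip caps and Serpina3n lower, beside 18.8% of the 21283 genes tested that were higher in hip caps and 19.1% that were lower (46.1% at an unadjusted p under 0.05). The 5 Serpina1 genes passed the count filter through the hip caps. They could thus be called higher in hip caps or not at all, and their shared direction is no further support.

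Serpina1d had the highest hip cap counts of the family, with 88.5, 75.6, 37.2 and 88.6 CPM in the 4 hip cap libraries at 5 MPa and 0 counts in all 4 metatarsal libraries, which makes it at least 497-fold higher in hip caps when the floor of 3 counts per library is put in for the zeros. Serpina1b was at 73.8, 82.7, 28.8 and 51.4 CPM in hip caps and at 8, 4, 0 and 0 counts in metatarsals (log2 fold change 8.61, SE 0.66, adjusted p = 2.6e-08). Serpina1a was at 68.5, 50.3, 25.5 and 53.7 CPM in hip caps and at 0 counts in metatarsals, at least 339-fold higher. Library 3 was the lowest hip cap at 5 MPa for these 3 genes, and also for Serpina1c, Serpina1e and Serpina3n (1.60, 1.05 and 5.25 CPM). It also had the lowest chondrocyte marker sum (23558 CPM) and the highest macrophage marker sum (686 CPM, against 115 to 202 CPM in the others). The part of these markers in the level was not tested.

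Serpina1c and Serpina1e were minor members. Serpina1c was at 5.26, 4.44, 1.60 and 3.55 CPM in hip caps at 5 MPa and at 0 counts in all 12 metatarsal libraries, and at 5 MPa it was at least 25.5-fold higher in hip caps. Serpina1e was at 3.00, 3.82, 1.05 and 2.56 CPM in hip caps against 1 count in the 4 metatarsal libraries, a ratio of totals of 210 with a 95% interval of 37.2 to 8330 that covers counting error only. Both passed the same test (adjusted p = 2.1e-05 for Serpina1c and 3.8e-07 for Serpina1e, edgeR).

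Serpina3n went the opposite way. At 5 MPa it was at 14.0, 8.53, 5.25 and 13.4 CPM in hip caps and at 26.7, 27.3, 25.6 and 20.1 CPM in metatarsals. Every metatarsal library lay above every hip cap, with means of 10.3 ± 4.18 CPM (SD, n = 4) and 24.9 ± 3.31 CPM (n = 4). The log2 fold change of hip caps against metatarsals was -1.27 (SE 0.34, adjusted p = 0.00657, edgeR), and the exact permutation test gave a two-sided p of 0.0286, the smallest it allows. With all 24 libraries in the fit the fold change remained -1.27 and the adjusted p rose to 0.169, so that this call was lost.

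**Figure D2:**
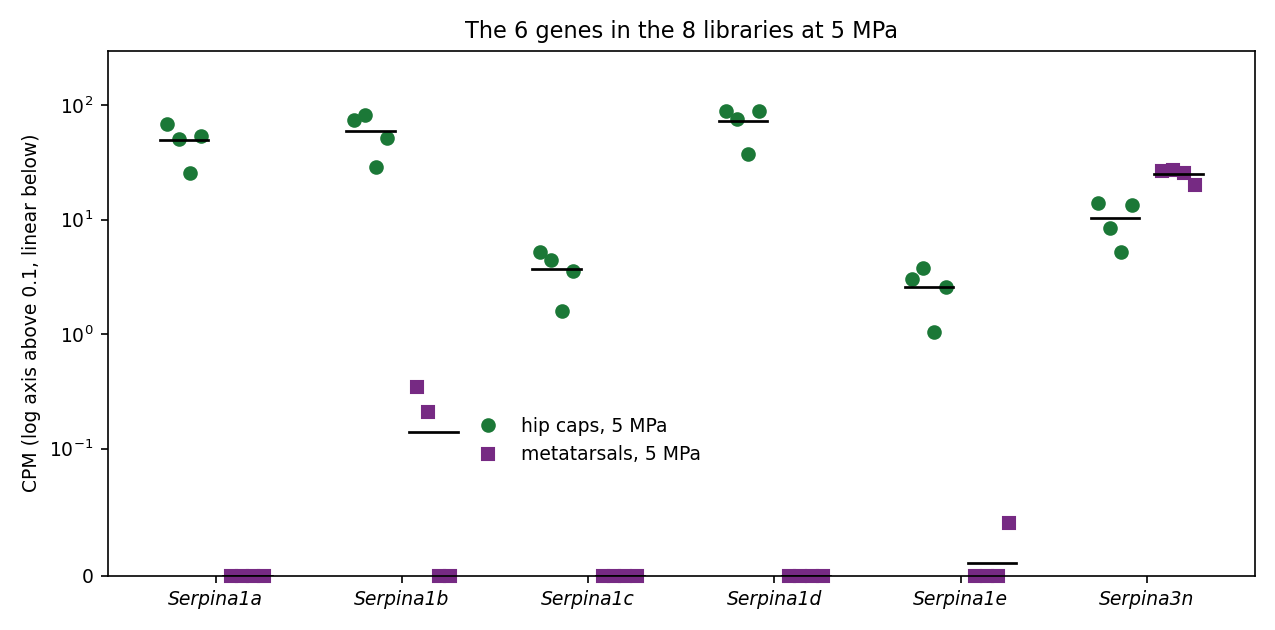
Levels (CPM, log axis above 0.1 and linear below) of the 6 genes in the 4 hip cap libraries (circles) and 4 metatarsal libraries (squares) at 5 MPa, with black lines at the means. The Serpina1 genes have 1.05 CPM or more in every hip cap and at most 0.348 CPM in a metatarsal, and Serpina3n is higher in all 4 metatarsals. Over all genes tested, 19.2% lay higher and 21.5% lower in hip caps without overlap.

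The same tissue comparison in the other pressures is a description. The Serpina1 sum of control hip caps averaged 299 ± 87.1 CPM (SD, n = 3) and that of control metatarsals 0.320 ± 0.460 CPM (n = 4). The values at 50 MPa were 91.7 ± 22.2 CPM (n = 3) and 0.275 ± 0.508 CPM (n = 4). In both pairs the groups did not overlap for the sum, as was so for 19.6% of all genes tested in the higher direction in controls and for 18.4% at 50 MPa (22.7% and 21.4% in the lower direction). Serpina3n in controls was at 11.1, 4.79 and 20.5 CPM in the hip caps used and at 18, 16.3, 25.3 and 12.7 CPM in metatarsals, where the groups overlapped, and control hip cap 4 had 0 counts of it. At 50 MPa it was at 8.30, 16.4 and 7.21 CPM in the hip caps used, with 8.19 CPM in library 2, and at 28.4, 17.5, 31.8 and 29.1 CPM in metatarsals, all of them above the hip caps.

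The division of the Serpina1 counts among the 5 genes was alike in the 10 hip cap libraries used. Serpina1d took 31.3% to 44.3% of the counts, Serpina1b 23.0% to 38.7%, Serpina1a 22.7% to 35.0%, Serpina1c 0% to 2.20% and Serpina1e 0.581% to 2.08%. These are shares of counts without correction for length. Coding lengths are 1242 bases in 4 of the genes and 1311 in Serpina1a, but the annotated transcripts differ more. The longest has 1762 bases in Serpina1b, 1581 in Serpina1a, 1575 in Serpina1e, 1394 in Serpina1d and 1361 in Serpina1c. The order of the genes by share is therefore not an order of transcript numbers. In hip cap control 3 Serpina1a took 35.0% (95% Wilson interval 33.6% to 36.5%) and Serpina1b 23.0% (21.7% to 24.3%), whereas in controls 1 and 2 Serpina1b took more than Serpina1a. The ranges of the 3 pressures overlapped for 4 of the 5 genes. For Serpina1e the controls, at 0.581% to 0.832%, lay below the 5 MPa libraries (1.12% to 1.76%) and the 50 MPa libraries (0.939% to 2.08%), a difference noticed after the values were seen and not tested.

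The 2 excluded libraries divided their counts differently. In control 4, Serpina1a held 5.49% of 419 counts (Wilson interval 3.69% to 8.10%), Serpina1b 49.9% and Serpina1c 12.2% (9.38% to 15.7%). In 50 MPa library 2, Serpina1a held 16.4% of 268 counts (12.5% to 21.3%), Serpina1b 47.0% and Serpina1c 13.8% (10.2% to 18.5%). The share of Serpina1c was higher in both than in any library used, while its level in them (3.48 and 5.61 CPM) lay within the 0 to 6.60 CPM of the libraries used.

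**Figure D3:**
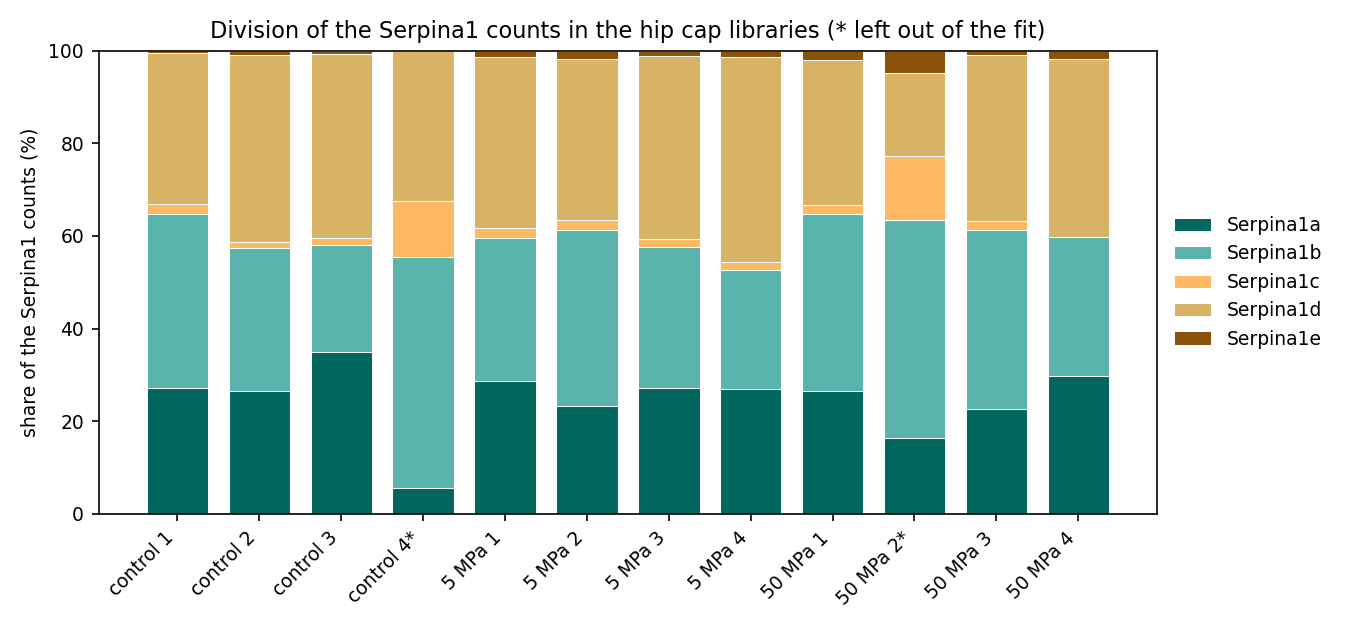
Share (%) of the Serpina1 counts given to each of the 5 genes in the 12 hip cap libraries, as stacked bars. In the 10 libraries used Serpina1c stays at 2.20% or less, and in the libraries marked with an asterisk it reaches 12.2% (control 4) and 13.8% (50 MPa library 2).

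Whether physiological pressure altered these genes in hip caps was tested at 5 MPa, with control libraries that had taken part in the choice of the genes. None of the 6 genes passed, beside 0.0094% of all genes tested that were higher and 0.0094% that were lower, and 0 of the 6 had an unadjusted p under 0.05 against 14.8% of all genes. The groups overlapped for all 6, while 8.73% of genes were higher and 7.86% lower without overlap. These shares depended on the fit, since 944 genes were higher and 1083 lower without batch terms, and 572 and 590 with library type alone. The counts were 872 and 385 without hip cap control 2, and 138 and 38 with a term for replicate number. DESeq2 also called 0 of the 6, with 1 at an unadjusted p under 0.05, while of 42695 genes it called 419 higher and 173 lower, with 3696 at an unadjusted p under 0.05. The Serpina1 sum averaged 187 CPM at 5 MPa and 299 CPM in controls with overlapping groups. The fit with terms for sequencing run and library type gave a log2 fold change of 1.16 (SE 1.3, adjusted p = 0.711, edgeR), opposite in sign to the levels, and without these terms it gave -0.67. It was -6.27 without hip cap control 3 and 4.38 without metatarsal control 1. In that fit the run effect on hip caps is estimated from metatarsals, where Serpina1 counts were 0 to 18, and no control hip cap used is of the run of the 5 MPa libraries, so run and pressure cannot be told apart from hip caps alone. The exact permutation test of the levels gave a two-sided p of 0.171.

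Serpina3n at 5 MPa averaged 10.3 ± 4.18 CPM (SD, n = 4) against 12.1 ± 7.92 CPM (n = 3) in control hip caps. Its log2 fold change was -0.18 (SE 0.56, adjusted p = 0.918, edgeR), and the exact permutation p was 0.914. The controls spanned the 5 MPa values on both sides, and no difference was detected.

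Hip caps at 50 MPa against control is a description, since it helped choose the genes. The Serpina1 sum was 91.7 CPM against 299 CPM, a ratio of 0.307, and the 3 libraries at 50 MPa lay below the 3 controls, as was so for 7.56% of all genes tested, with 8.24% above. The fitted log2 fold change was -2.36 (SE 0.71), without terms for run and library type it was -1.70, and without control 3, the only unstranded control, it was -12.61. Control 4, at 28.6 CPM, lay below all of the 50 MPa libraries, so with all 24 libraries the groups overlapped. Among unstranded hip caps, which share library type and run, the only control had 375 CPM and the 50 MPa libraries used had 68.8 to 113 CPM.

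By gene at 50 MPa, Serpina1a was at 30.0, 21.1 and 20.4 CPM against 86.1, 54.2 and 131 CPM in controls. Serpina1d was at 35.4, 33.4 and 26.4 CPM against 103, 82.5 and 149 CPM. Serpina1b was at 43.3, 36.1 and 20.7 CPM against 120, 63.0 and 86.3 CPM. All 3 lay below the controls used without overlap, with fitted log2 fold changes of -2.56 (SE 0.52), -2.27 (SE 0.39) and -1.43 (SE 0.62). Of all genes tested, 7.56% were lower and 8.24% higher without overlap. The excluded control 4, at 1.57, 9.29 and 14.3 CPM in the same order, lay below the 50 MPa libraries used, so the separation is absent when it is counted.

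The minor members were less clear at 50 MPa. Serpina1c was at 2.05, 1.68 and 0 CPM against 6.60, 2.78 and 5.73 CPM, below the controls used, whereas in the excluded libraries it was at 5.61 CPM at 50 MPa and 3.48 CPM in control. Serpina1e was at 2.36, 0.875 and 1.20 CPM against 1.85, 1.70 and 2.50 CPM, with overlap. Serpina3n overlapped as well, at 10.6 ± 4.99 CPM (SD, n = 3) against 12.1 ± 7.92 CPM (n = 3), with a fitted log2 fold change of -0.63 (SE 0.49).

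Between 50 and 5 MPa, again as a description, the Serpina1 sum was 91.7 against 187 CPM with overlap through library 3 at 5 MPa, and Serpina1d was the single member whose groups did not overlap (26.4 to 35.4 CPM against 37.2 to 88.6 CPM, beside 6.47% of all genes in that direction and 6.74% in the other). The fitted log2 fold change of the sum was -3.52 with the run and library type terms and -1.03 without them. Serpina3n was at 10.6 and 10.3 CPM.

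The Serpina1 sum was also set against chondrocyte transcripts, a measure chosen after the levels were seen. None of the 12 chondrocyte markers passed the test in hip caps at 5 MPa against control, beside 0.0094% of all genes in each direction. The summed level of the 12 chondrocyte markers was 51197 to 82226 CPM in the control hip caps used, 23558 to 55867 CPM at 5 MPa and 34478 to 39746 CPM at 50 MPa. Col2a1 alone averaged 25726 CPM in hip caps at 5 MPa, where the 12 markers together averaged 42354 CPM. A ratio to these markers thus rests largely on Col2a1. Per 1000 CPM of these markers the Serpina1 sum was 3.87, 3.99 and 5.04 in controls. It was 6.18, 4.23, 4.00 and 3.58 at 5 MPa and 3.28, 2.35 and 1.91 at 50 MPa. The 5 MPa values surrounded the controls, and the 50 MPa values of the libraries used were all below both other groups. The difference between control and 50 MPa hip caps helped choose the genes, so this is a description. The excluded libraries were at 2.86 (control 4) and 2.67 (50 MPa library 2), within the range at 50 MPa, so the separation from the controls is absent when control 4 is counted. The part of the chondrocyte share in the Serpina1 level was not tested.

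**Figure D4:**
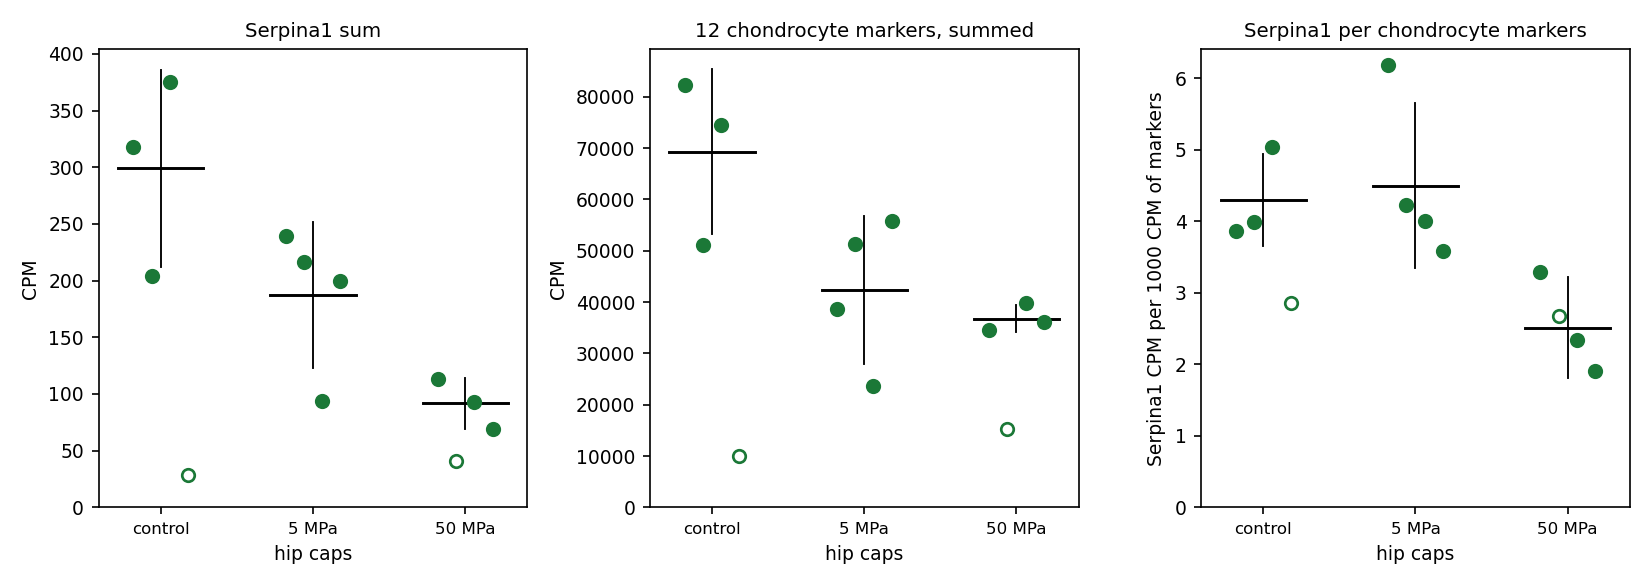
Serpina1 sum (left, CPM), sum of 12 chondrocyte markers (middle, CPM) and Serpina1 sum per 1000 CPM of these markers (right) in the 12 hip cap libraries, with linear axes. Filled points are the libraries used, open points the 2 excluded ones, and lines the mean and SD of those used. The ratio is 3.58 or more in controls and at 5 MPa and 3.28 or less at 50 MPa among the libraries used, and 2.86 in the excluded control.

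In metatarsals, neither pressure gave a call for any of the 6 genes, and no gene of the table passed (0%) at 5 or 50 MPa in edgeR, with 3.24% and 3.89% of genes at an unadjusted p under 0.05 and 0 of the 6 serpins among them. DESeq2 likewise called 0 of the 6, with 1 at an unadjusted p under 0.05 at each pressure. Of 42695 genes it called 4 higher and 15 lower at 5 MPa and 5 higher and 8 lower at 50 MPa, with 1001 and 1135 at an unadjusted p under 0.05. These comparisons share the metatarsal controls with each other and with the comparison of the control tissues. Serpina3n averaged 18.1 ± 5.28 CPM (SD, n = 4) in controls, 24.9 ± 3.31 CPM (n = 4) at 5 MPa and 26.7 ± 6.31 CPM (n = 4) at 50 MPa. The log2 fold changes were 0.36 (SE 0.36) and 0.33 (SE 0.36), both with an adjusted p of 1 (edgeR). The groups overlapped for all 6 genes at both pressures, while 1.64% of genes at 5 MPa and 2.42% at 50 MPa were higher, and 1.25% and 2.08% lower, without overlap. Only Serpina3n was well above 0 in metatarsals. The 5 Serpina1 genes passed the count filter through the hip caps, and most of their metatarsal counts were 0. Their overlap and lack of a call are therefore not a result to set beside these shares.

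The Serpina1 genes were so low in metatarsals that a fall could not be detected at this depth, with 23 counts of the sum in the 4 controls, 13 at 5 MPa and 15 at 50 MPa. Control library 3 held 18 of the 23 and 50 MPa library 4 held 14 of the 15. The response to 5 MPa did not differ between hip caps and metatarsals past the threshold for any member, with an interaction of 2.26 on the log2 scale (SE 1.55, adjusted p = 0.595, edgeR) for the Serpina1 sum and -0.54 (SE 0.60, adjusted p = 0.759, edgeR) for Serpina3n, beside 0.0094% of all genes called in each direction and 11.2% at an unadjusted p under 0.05. The interaction of the sum was -4.79 without hip cap control 3 and 5.87 without metatarsal control 1.

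Ordered by level, the Serpina1 sum ran from control hip caps (mean 299 CPM) over 5 MPa (187 CPM) and 50 MPa (91.7 CPM) to the 3 metatarsal groups (0.320, 0.275 and 0.150 CPM). Controls and 5 MPa overlapped, 5 and 50 MPa overlapped, the 3 metatarsal groups overlapped with each other, and hip caps at 50 MPa did not overlap with any metatarsal group. Serpina3n had nearly the reverse order, from metatarsals at 50 MPa (26.7 CPM), 5 MPa (24.9 CPM) and control (18.1 CPM) to hip caps in control (12.1 CPM), at 50 MPa (10.6 CPM) and 5 MPa (10.3 CPM), and each neighbouring pair in this order overlapped.

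Over the 10 hip caps used, Serpina1a and Serpina1d varied together most closely (Pearson r of log2 CPM 0.978), followed by Serpina1a with Serpina1b (0.889) and Serpina1b with Serpina1d (0.886). Serpina1e had r of 0.580 to 0.671 with the other Serpina1 genes. Serpina3n had r of 0.250 to 0.446 with the 5 Serpina1 genes. The Serpina1 genes share reads, and all points share pressure group, run and depth, so these values only describe the libraries.

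The genes most like the Serpina1 sum over the 22 libraries, among 13466 genes with at least 1 CPM in hip caps, were Chad, a leucine-rich cartilage matrix protein (Pearson r 0.991), Wif1, a secreted Wnt inhibitor (0.990), Comp, a cartilage matrix protein (0.990), Cemip, which takes part in hyaluronan breakdown (0.989), and Tnfrsf11b, the osteoclast inhibitor osteoprotegerin (0.989). All 5 were far higher in hip caps, as Chad at 1418 against 8.71 CPM, so these r mostly restate the difference between tissues. Over the 10 hip caps alone the most alike were Boc, a Hedgehog co-receptor (0.961), Wnk2 (0.960), Rtl3 (0.955), Igdcc4 (0.950) and Mmab (0.948). For Serpina3n they were Tnxb, the matrix protein tenascin-X (0.864), Pi16 (0.849), Rpain (0.849), Galnt16 (0.845) and Adam1a (0.845) over 22 libraries, and Lbp, the acute phase protein that binds lipopolysaccharide (0.921), Sco1 (0.896), Ift140 (0.896), Galnt16 (0.888) and Abcc10 (0.887) over the hip caps. With Spearman's rho in place of Pearson's r, 1 of the 5 genes for the Serpina1 sum and 2 of the 5 for Serpina3n were the same over 22 libraries, and 0 and 2 over the hip caps.

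The other genes of the pathway were counted in the 8 libraries at 5 MPa, and the lists, like the 6 genes, were written with earlier results known. The count of every list below stands beside 18.8% of all genes tested that were higher in hip caps and 19.1% that were lower. No list was tested as a set. The 12 hepatocyte markers were at the edge of detection in both tissues, since only 1 of 12 had enough counts to be tested (Cyp2e1, which did not pass). Alb, the defining marker, is named here outside the naming rule given below. It had at most 4 counts in a hip cap library used and 5 in a metatarsal. The summed level of the 12 was 0.400 to 1.56 CPM in hip caps and 0.686 to 1.48 CPM in metatarsals at 5 MPa. The Serpina1 sum was at 94.1 CPM or more in these hip caps. Acute phase genes were counted in a list of their own, given below, and the cells that made these transcripts were not tested.

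Among 19 other clade A serpins, the clade to which all 6 genes belong, 4 could be tested, and none was higher and 2 were lower in hip caps (median log2 fold change of those tested -1.01, against -0.08 over all genes). The 2 were relatives of Serpina3n, namely Serpina3g (2.02 ± 1.06 against 5.52 ± 1.36 CPM, adjusted p = 0.0155) and Serpina3c (0.302 ± 0.116 against 1.18 ± 0.560 CPM, adjusted p = 0.0300), both by edgeR with SD over n = 4. Of 19 serpins of other clades, 14 could be tested, 5 were higher and 1 was lower. The higher ones included Serpine2, a thrombin and urokinase inhibitor (252 against 52.2 CPM), and Serpinh1, the collagen chaperone (810 against 412 CPM).

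Of 20 serine proteases, among them known targets of these inhibitors, 14 could be tested, 1 was higher in hip caps and 6 were lower. The higher gene was Htra1, a secreted protease of cartilage matrix (82.8 against 44.0 CPM). The lower ones included the mast cell chymases Cma1 (0.0630 against 9.99 CPM) and Mcpt4 (0.0341 against 5.58 CPM). Elane, which encodes neutrophil elastase and is named here after its values were seen, had too few counts for the test, with 65 counts in the 4 hip caps and 5 in the 4 metatarsals. Of the neutrophil markers, 7 of the 8 tested were higher in hip caps, with sums of 15.5 to 203 CPM against 7.26 to 10.1 CPM, and of the macrophage markers 4 of 10.

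Of 18 acute phase genes, 9 could be tested, 6 were higher and 1 was lower in hip caps (median log2 fold change 1.31, against -0.08 over all genes). Of all genes tested, 18.8% were higher and 19.1% lower. Ceruloplasmin, Cp, which carries copper and oxidises iron, was at 287 against 3.94 CPM, and haptoglobin, Hp, which binds free haemoglobin, at 41.6 against 1.97 CPM. Complement C3 was the lower one, at 41.4 against 106 CPM, the direction that Serpina3n had. Of 18 genes of IL-6 and IL-1 signalling, 16 could be tested, 10 were higher and 2 lower, and the higher ones included the cytokine Il11 (3.65 against 0.542 CPM) and Lifr, the receptor of leukaemia inhibitory factor (235 against 48.7 CPM). All 11 genes for uptake, folding and export of these inhibitors could be tested, and 10 were higher in hip caps, among them Lrp1, the receptor that takes up serpin and protease complexes (1838 against 841 CPM), and the chaperones Calr (458 against 164 CPM) and Hspa5 (350 against 148 CPM). All 12 chondrocyte markers and all 10 markers of hypertrophic and mineralising cells were higher in hip caps, and 9 of 10 muscle markers were lower. In hip caps at 5 MPa against control and in metatarsals at either pressure, none of the genes of any list passed the test. Over all genes tested, 0.0094% passed in each direction in those hip caps and 0% in metatarsals, so the lists do not stand out.

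**Figure D5:**
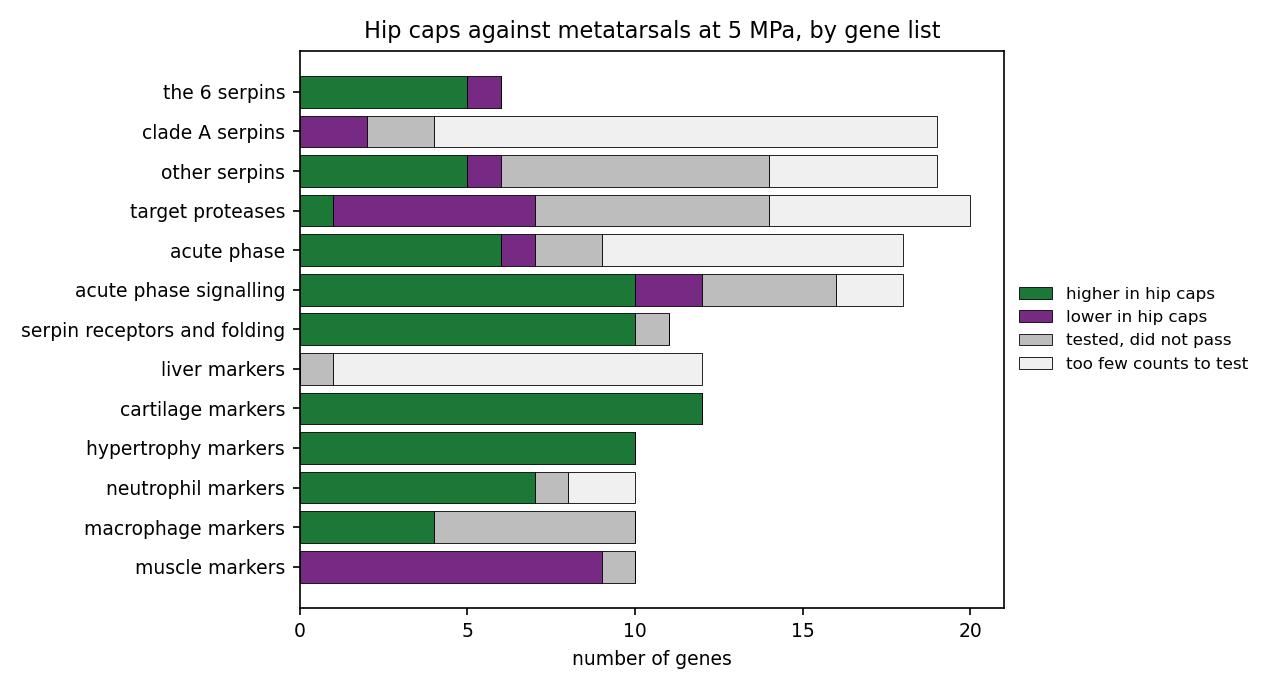
Number of genes of each list that were higher in hip caps, lower in hip caps, tested without passing, or too low to test, in hip caps against metatarsals at 5 MPa (edgeR, adjusted p at most 0.05). Of the 12 hepatocyte (liver) markers 11 were too low to test, while the 12 chondrocyte (cartilage) markers were all higher in hip caps. Over all genes tested, 18.8% were higher and 19.1% lower in hip caps.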

How the data were processed

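The authors trimmed reads with Trim Galore 0.6.5, quantified transcripts with kallisto and collapsed these to genes through tximport (GRCm39 per the labels). The estimated counts deposited by the authors are not normalized. They were rounded. Paralogues share reads that kallisto divides by estimate. RNA was partly degraded by the study's account. Library type is labelled, while the sequencing run was read from the study's clustering figure, and its methods count the runs differently.

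Genes were filtered by filterByExpr (21283 tested), scaled by TMM and fitted in edgeR 4.0.16 (R 4.3.3) with the robust quasi-likelihood test on group, run and library type over 22 libraries, with Benjamini-Hochberg adjustment and a threshold of 0.05. The 5 Serpina1 rows were summed before a separate fit. The members, lists and tests were chosen with earlier results of these data known. Of each list, the 3 genes with the highest mean CPM and the 2 with the largest fold change past the threshold at 5 MPa could be named. Hip cap replicates are separate mice and metatarsal replicates separate pools by the study's methods, which do not say whether pools share a litter. Alternatives included DESeq2 1.42.0, other scalings, filters, batch terms and library sets. Coding sequences and promoters were aligned with MAFFT 7.526. The table has 0 columns of other samples, and RefSeq proteins were not used here. Some members of the lists are counted but not reported by name here.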

Additional observations from a re-analysis of the deposited data

Results flagged for a closer look

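Of 51 sets of 4 libraries (36 of levels and 15 of shares), 9 held a library whose gap to the nearest other exceeded, as a part of the group's range, the 95% limit of Dixon's test, where chance alone gives about 1 in 20 for measurements on a continuous scale. That rate does not hold for the 4 sets in which the other three libraries were at 0, where any count is past the limit, and the sum is not independent of its genes. In metatarsals at 50 MPa, library 4 was apart for Serpina1a (0.444 CPM, the other three at 0), Serpina1b (0.148 CPM, the other three at 0), Serpina1d (0.444 CPM, the others at 0.0642 CPM or less) and the Serpina1 sum (1.04 CPM, the others at 0.0642 CPM or less). That library is unstranded, as are the 4 hip caps at 50 MPa, and its Serpina1 counts are 14 in all. In control metatarsals, library 3 was apart for Serpina1d (0.111 CPM, 2 counts), and at 5 MPa library 4 was apart for Serpina1e (0.0413 CPM, 1 count). In hip caps at 50 MPa, library 3 was apart for Serpina3n, with 16.4 CPM against 7.21 to 8.30 CPM in the other three. The share of Serpina1c among the Serpina1 counts was apart in hip cap control 4 (12.2% against 1.36% to 2.08%) and in hip cap 50 MPa library 2 (13.8% against 0% to 1.81%), both of them libraries the study left out. No difference between the tissues in the response to 5 MPa passed the test.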

How the results depend on the processing

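Hip caps against metatarsals at 5 MPa varied least when each library was left out. The 5 Serpina1 genes and their sum kept their call under every alternative, and the sum ran from 9.83 to 11.08 (log2) when each library was left out. With metatarsal counts near 0 their direction could not change, so that it stayed the same is no support. The genes were also chosen by this tissue difference in the controls. With all 24 libraries Serpina3n had the same fold change (-1.27) at an adjusted p of 0.169, so that 0 of the 6 were lower. Leaving out each library gave -1.38 to -0.97 for Serpina3n.

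Hip caps at 5 MPa against control changed sign for the Serpina1 sum without batch terms (-0.67), with library type alone (-0.25) and with hip caps alone (-0.66), and for Serpina3n with library sizes alone (0.34), all 24 libraries (1.31) and library type alone (0.12). None of these passed the threshold. The interaction of Serpina3n became 0.72 with all 24 libraries. At 50 MPa against control the Serpina1 sum was -1.70 without batch terms, -1.70 with hip caps alone and -3.75 by DESeq2. At 50 against 5 MPa it was -4.78 with all 24 libraries, -1.03 without batch terms, -2.35 with library type alone, -4.59 by DESeq2 and -1.04 with hip caps alone, and Serpina3n was -1.63 with all 24 libraries, 0.10 without batch terms and 0.063 with hip caps alone. Between tissues at 50 MPa the sum was 8.62 without batch terms, and Serpina3n was -2.53 with library sizes alone and -2.71 with all 24 libraries. Between control tissues the sum was 9.53 without batch terms and 9.10 with library type alone, and Serpina3n was -1.66 with library sizes alone and -1.99 with all 24 libraries. The number of likest genes kept with Spearman's rho was 1 and 0 of 5 for the sum and 2 and 2 of 5 for Serpina3n.

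Leaving out each library in turn gave wide ranges for comparisons that rest on run or library type, and their extremes came without hip cap control 3, hip cap 50 MPa library 3, metatarsal control 1 or metatarsal 50 MPa library 4. For the Serpina1 sum the ranges were -6.27 to 4.38 (hip 5 MPa against control), -12.61 to -2.07 (hip 50 MPa against control), -6.45 to 4.12 (hip 50 against 5 MPa), 4.37 to 14.95 (control tissues), 6.43 to 16.99 (tissues at 50 MPa) and -4.79 to 5.87 (interaction). For Serpina3n they were -0.76 to 0.52, -1.17 to 0.37, -1.44 to -0.067, -1.26 to 0.010, -2.69 to -1.39 and -1.21 to 0.068 in the same order. In metatarsals the sum ran from -1.95 to 0.97 at 5 MPa and from -4.13 to -0.21 at 50 MPa, and Serpina3n from 0.15 to 0.60 and from 0.13 to 0.55.

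The replicate number was not taken as a pairing, since residuals of libraries with equal numbers had correlations of -0.29 to 0.17 (median 0.018). With the replicate block the tissue difference at 5 MPa was 10.19 for the sum and -1.25 for Serpina3n, and no call changed.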
